A study of Mus musculus with 2 samples.

Results

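Natural killer (NK) cells were taken from a single-cell RNA sequencing run on CD45+ cells of the spinal cord, and 183 of the 20504 cells kept were NK cells by their transcripts. A cell was counted as an NK cell when it held at least 1 count of Ncr1, at least 1 count summed over Klrb1c, Klre1 and Prf1, at most 1 count summed over Cd3d, Cd3e and Cd3g, and 0 counts of Cd79a and of Ly6g. Cells with more than 20% of their counts from mitochondrial genes were left out beforehand. All mice were C57BL/6 with experimental autoimmune encephalomyelitis (EAE), an induced autoimmune inflammation of brain and spinal cord, and were examined on day 15 after induction. Of the 4 mice, 2 were untreated and 2 were given an inhibitor, with no name, dose or schedule given in the sources used here. Each mouse had its own antibody hashtag, all were pooled on a single BD Rhapsody run, and cDNA was amplified by TAS-Seq. The untreated mice gave 66 and 44 NK cells, and the inhibitor-treated mice gave 24 and 49.

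NK cells are innate lymphocytes that kill infected, transformed or stressed cells without a rearranged antigen receptor. Whether they fire depends on the balance between activating receptors, which signal through adaptors such as Fcer1g and Tyrobp, and inhibitory receptors for major histocompatibility complex (MHC) class I. In the mouse many of these are lectin-like receptors of the NK gene complex, among them the Ly49 receptors (Klra genes), the CD94 and NKG2 pair (Klrd1 with Klrc1 or Klrc2), NKG2D (Klrk1) and the NKR-P1 receptors (Klrb1 genes). Killing uses perforin (Prf1), which opens the target membrane, and granzymes, proteases that enter through it. The T-box factors Eomes and Tbx21 direct NK development, and interleukin-15, read through Il2rb, keeps the cells alive. In EAE, NK cells enter the central nervous system with T cells and myeloid cells.

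Values are CPM, the counts of a gene per 1000000 counts of a class in a mouse, given in the order untreated 1, untreated 2, inhibitor 1 and inhibitor 2 unless said otherwise. Levels compare a gene between samples and are not corrected for gene length. The genes of the gate describe the selection and were not tested. Ncr1, the receptor NKp46, stood at 483, 639, 635 and 438 CPM. Klrb1c, the NK1.1 antigen, stood at 459, 668, 655 and 591 CPM and was detected in 83.6% of the cells. Klre1 was at 391, 552, 339 and 429 CPM, and Prf1 at 918, 716, 955 and 694 CPM. Of the 5 genes that name the class, Klra8 and Gzma were not part of the gate. Klra8 was detected in 29.5% and Gzma in 62.8% of the NK cells, against 0.735% for each gene in 5304 Ly6g+ cells, the neutrophil-like cells of the same run, used here as a class that should lack them. Median counts per cell were 8092 in NK cells and 9142 in Ly6g+ cells.

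The edge of the gate was gradual. Among the members, 30 cells had exactly 1 count of Ncr1, 12 had exactly 1 count over Klrb1c, Klre1 and Prf1, and 41 carried the single Cd3 count allowed, while 142 had none. The 41 cells with a Cd3 count had Gzma at 2998 CPM and Klra8 at 282 CPM, and the 142 without had 6170 and 474 CPM. Just outside, 66 cells met every other condition but held at least 2 Cd3 counts, with Gzma at 1966 CPM and Trac, a T cell receptor constant gene, at 242 CPM. Another 231 cells lacked only Ncr1. Within them, 140 had at least 4 counts over Klrb1c, Klre1 and Prf1, with Klra8 at 938, Gzma at 3956, Prf1 at 690 and Trac at 105 CPM. The members had Klra8 at 413, Gzma at 5165 and Trac at 14.5 CPM. The 140 cells thus also held Klra8 and Gzma, which were not used to pick them, and carried more Trac. Their Prf1, and the Trac of the 66 cells with Cd3 counts, follow in part from how those cells were picked. Only 22 cells failed on Klrb1c, Klre1 and Prf1 alone. These had Gzma at 506, Klra8 at 7.97 and Eomes at 47.8 CPM, and Eomes was at 236 CPM in the members.

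Total NK counts per mouse ran from 253413 to 912211, and no barcode was shared between mice. A single cell held 27.6% of the NK counts of inhibitor 1 and another held 12.1% of those of inhibitor 2. Counts of genes used as markers of other cell types were present in the members. The summed T cell markers (15 genes, none at 0) ranged from 1045 to 1162 CPM in untreated and from 762 to 915 CPM in inhibitor-treated mice, mostly from Trbc1 and Trbc2, which NK cells can transcribe without rearrangement. The microglia and macrophage markers (14 genes, none at 0) ranged from 469 to 654 and from 702 to 722 CPM. Neutrophil markers (13 genes, with Ly6g and Camp at 0) stood at 303 and 421 CPM in untreated mice and at 5714 and 381 CPM in inhibitor-treated mice, and 1 cell supplied 61.8% of them. Of the B lineage markers (11 genes), 6 were at 0 or listed at 0, among them Cd79a, Ebf1 and Mzb1 at 0 and Igkc and Jchain listed at 0, with summed levels from 173 to 358 and from 170 to 247 CPM. The gate itself set Ly6g and Cd79a to 0 and capped Cd3d, Cd3e and Cd3g, so these genes say nothing about purity. Dendritic cell markers (12 genes, with Clec9a and Cd209a at 0) summed to between 563 and 733 in untreated and between 201 and 379 CPM in inhibitor-treated mice. That list includes Itgax, which was called higher in NK cells than in both T cell classes (below), so its sum does not measure dendritic cells alone. Markers of other innate lymphoid and mast cells (12 genes) summed to at most 150 CPM, with Il5, Il13, Il23r, Il17a and Mcpt8 at 0.

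NK cells were a small fraction of the infiltrate in every mouse. They made up 1.40% of the kept cells in untreated 1 (95% Wilson interval 1.10 to 1.77), 0.888% in untreated 2 (0.662 to 1.19), 0.424% in inhibitor 1 (0.285 to 0.631) and 0.948% in inhibitor 2 (0.718 to 1.25). The intervals cover counting error only. The group means were 1.14% ± 0.36 (SD, n = 2) and 0.686% ± 0.37 (SD, n = 2). Inhibitor 2 lay above untreated 2 with this gate, and the two-sided exact permutation test over mice gave p = 0.667, where 2 against 2 mice can give no p below 0.333. With a stricter gate (0.868% and 0.626% against 0.248% and 0.541%) and with cells thinned to 3000 counts (1.24% and 0.908% against 0.394% and 0.885%) both inhibitor-treated mice lay below both untreated mice, each with the smallest p of 0.333. Relative to NK and T cells together, the shares were 2.61%, 1.44%, 1.61% and 2.16%, with means of 2.03% ± 0.827 and 1.88% ± 0.393 (SD, n = 2 each, exact permutation p = 1). A share of sequenced cells is not a cell number in the tissue, which was not given.

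**Figure D1:**
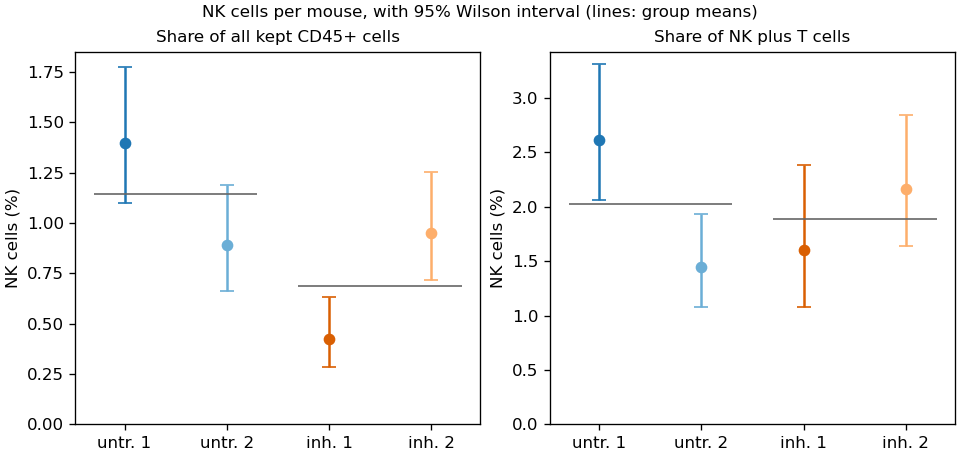
NK cells as a percentage of all kept cells (left) and of NK plus T cells (right). Each point is a mouse with its 95% Wilson interval and each line is a group mean. The lowest mouse on the left is inhibitor 1 at 0.424%, while inhibitor 2 at 0.948% lies among the untreated mice, and on the right the groups overlap.

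To see what set the NK cells apart from killer and innate-like T cells of the same cords, their summed counts were compared within mice with those of 844 CD8 T cells and 397 gamma-delta T cells. Both comparisons use the same NK counts, so they are not independent of each other. A gene was called at an adjusted p under 0.05 and a difference of at least 2-fold. As a check, each fit was repeated without each mouse and without cells that held a count of any of 6 markers of B cells, myeloid cells and microglia, among them Ms4a1, Csf1r, Cxcr2, Siglech and P2ry12. That check kept 125 NK cells, 478 CD8 T cells and 258 gamma-delta T cells, and these are the fits without cells with markers of other types. In the comparison between treatments the same name stands for 8 markers, with Cd4 and Cd5 added, which kept 124 NK cells. Against CD8 T cells, 101 of 9085 genes were higher (1.11%) and 206 were lower (2.27%) in NK cells. Against gamma-delta T cells, 125 of 7189 genes were higher (1.74%) and 181 lower (2.52%). These shares are the background for every count of called list members below. The medians over all genes tested were -0.08 and -0.03. The lower level of T cell receptor genes in the NK cells follows from the limit on Cd3 counts and serves only as a check of the labels. Of 9 tested T cell markers 6 were lower than in CD8 T cells, and none was higher.

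Many activating receptors and their adaptors were higher in NK cells. Of 22 tested activating receptors and adaptors, 12 were higher and 0 lower than in CD8 T cells, with a median log2 difference of 1.71 against -0.08 over all genes tested. Against gamma-delta T cells 12 were higher and 1, the zeta chain adaptor gene Cd247, was lower, with a median of 1.88 against -0.03. Counted at an adjusted p under 0.05 in either direction and at any fold, 14 of the 22 passed against gamma-delta T cells, against 8 without untreated 1 and 7 without untreated 2. Cd160 was lost against CD8 T cells whichever mouse was left out (adjusted p from 0.101 to 0.109), and against gamma-delta T cells without untreated 1 (0.0992), untreated 2 (0.0745) or inhibitor 2 (0.0652). Cd247 was not called without untreated 1 (adjusted p = 0.127), untreated 2 (0.124) or inhibitor 2 (0.0771). Klrk1, the stress-ligand receptor NKG2D, stood at 639, 779, 284 and 454 CPM in NK cells. In CD8 T cells it stood at 108, 108, 105 and 82.4 CPM, and in gamma-delta T cells at 129, 125, 103 and 195 CPM. Each NK value lay above every T cell value, with a log2 difference of 2.34 ± 0.23 (SE) to CD8 T cells (adjusted p = 0.00013) and of 1.89 ± 0.25 to gamma-delta T cells (adjusted p = 0.0009). Of the adaptors, Fcer1g and Tyrobp were called higher in both comparisons, while Hcst was called in neither. Fcer1g was at 1132, 1111, 1472 and 1332 CPM in NK cells and at 282, 286, 116 and 98.7 CPM in CD8 T cells, a log2 difference of 2.81 ± 0.31 (adjusted p = 0.000283). Tyrobp, the adaptor DAP12, was at 2257, 1907, 1886 and 1780 CPM against 455, 507, 230 and 224 CPM, a log2 difference of 2.54 ± 0.18 (adjusted p = 1.43e-05). Both were higher in all 4 mice. Both genes are also strongly transcribed in myeloid cells and were detected in 91.6% and 98.2% of the Ly6g+ cells. Hcst, the adaptor DAP10 that NKG2D uses, was not called and stood at 299, 414, 501 and 299 CPM, overlapping its range of 382 to 535 CPM in CD8 T cells.

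The activating Ly49 receptors were nearly absent from CD8 T cells. Klra8 (Ly49H, chr6:130115226-130129898 in GRCm38, minus strand), which recognises a viral glycoprotein, stood at 645, 482, 126 and 195 CPM in NK cells and at 0.308, 0.471, 0 and 0.792 CPM in CD8 T cells. Its log2 difference was 9.53 ± 0.41 (adjusted p = 4.67e-07), but since Klra8 was chosen as a marker of these cells this is a description more than a finding. Klra4 (Ly49D), which pairs with DAP12, was at 207, 574, 560 and 355 CPM against 2.15, 1.88, 1.51 and 1.19 CPM, a log2 difference of 7.68 ± 0.33 (adjusted p = 4.67e-07). In gamma-delta T cells Klra4 was at 16.5, 6.59, 0 and 52.7 CPM, still below each NK value (log2 difference 4.56 ± 0.64, adjusted p = 0.00131). Klra8 was at 8.27, 0, 0 and 135 CPM there, with 1 mouse inside the NK range. Its log2 difference of 4.82 ± 1.14 (adjusted p = 0.0316) missed the threshold without untreated 1 (adjusted p = 0.193), without untreated 2 (0.177) and without inhibitor 1 (0.0879). The Klra genes are near-identical in parts, and how shared reads were assigned was not given, so their single levels are uncertain.

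Among the signalling molecules, Cd244a (2B4), Sh2d1b1 (EAT-2, which couples such receptors) and Plcg2 (phospholipase C gamma) were also called higher than in both T cell classes. Plcg2 missed the threshold against CD8 T cells whichever mouse was left out (adjusted p from 0.0549 to 0.224), and against gamma-delta T cells without untreated 2 (0.124) or inhibitor 2 (0.0586). Cd244a, at 122, 157, 98.6 and 97.3 CPM, kept its call against CD8 T cells and lost it against gamma-delta T cells without untreated 1 (adjusted p = 0.0725) or untreated 2 (0.11). Sh2d1b1 stood at 60.3, 33.9, 23.7 and 60.5 CPM in NK cells and at no more than 5.86 CPM in any T cell sample, and its call against gamma-delta T cells was lost without untreated 1 (adjusted p = 0.0711). Syk, the kinase downstream of these adaptors, was called against gamma-delta T cells (log2 difference 2.63 ± 0.45, adjusted p = 0.00511, but 0.0623 without untreated 2). It missed against CD8 T cells (adjusted p = 0.0906). Zap70, the related kinase of T cells, stood at 178, 128, 107 and 130 CPM and was not called in either comparison.

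Genes of the inhibitory receptor list were called in both directions against CD8 T cells. Klri2 belongs to that list and was higher in both comparisons, although it is not established as an inhibitory chain. Of 17 tested against CD8 T cells, 8 were higher (Klra1, Klra3, Klra7, Klra9, Klrc1, Klrd1, Klri2 and Klrb1b) and 4 were lower (Klra6, Lag3, Havcr2 and Pdcd1). The higher ones are lectin-like receptors of the NK gene complex, as is Klra6, and Lag3, Havcr2 (TIM-3) and Pdcd1 (PD-1) are checkpoint receptors of activated T cells. Of 13 tested against gamma-delta T cells, 6 were higher and 0 lower. Klra7 (Ly49G2) was even across mice at 539, 600, 525 and 563 CPM. CD8 T cells had 49.2, 32.5, 9.08 and 42.4 CPM and gamma-delta T cells 51.9, 54.2, 92.0 and 85.9 CPM, so no samples overlapped (log2 difference 4.13 ± 0.32 and 2.99 ± 0.22, adjusted p = 1.97e-05 and 2.41e-05). Klrd1 (CD94), the partner of the NKG2 chains, was at 690, 724, 430 and 526 CPM against 159, 156, 182 and 145 CPM in CD8 T cells, a log2 difference of 1.85 ± 0.19 (adjusted p = 0.000165). Klrc1 (NKG2A, inhibitory) was at 252, 317, 335 and 238 CPM and Klrc2 (NKG2C, activating) at 151, 169, 162 and 195 CPM, and each lay above all 8 T cell samples. Lag3 stood at 21.9, 33.9, 19.7 and 31.6 CPM in NK cells and at 120, 163, 41.6 and 117 CPM in CD8 T cells. Several inhibitory calls were lost without 1 mouse. They include Klra1 (adjusted p = 0.0593 without untreated 1, 0.092 without inhibitor 1), Klra3 (0.0884 without untreated 1, 0.055 without inhibitor 2), Havcr2 (0.0997 without untreated 1, 0.0518 without inhibitor 2) and Lag3 (0.0842 without untreated 1, and 0.576 without cells with markers of other types). Klra6 was lost without untreated 1 (0.149), untreated 2 (0.0678) or inhibitor 2 (0.0876), and Pdcd1 whichever mouse was left out (0.0808 to 0.31). Against gamma-delta T cells Klra9 was lost without untreated 1 (0.089) or untreated 2 (0.14).

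Many of these genes are neighbours. The stretch chr6:128609227-131247362 of GRCm38, which holds the NK gene complex, contained 26 genes tested against CD8 T cells. Of these, 16 (61.5%) were higher in NK cells, against 1.11% of all genes tested, and 1, Klra6, was lower. Of 22 tested there against gamma-delta T cells, 14 (63.6%) were higher, against 1.74% of all genes tested. The gate genes Klrb1c and Klre1 lie in this stretch and were not tested. Since the NK cells were selected partly on them, and the T cells on a lack of Ncr1, the counts are not independent of the selection. Cd69 lies in the same stretch and did not share that direction. It stood at 106, 184, 110 and 98.6 CPM in NK cells, and was lower than in gamma-delta T cells with their 320, 445, 409 and 264 CPM (log2 difference -1.58 ± 0.20, adjusted p = 0.00069). Without cells with markers of other types, it was not called (-1.08, adjusted p = 0.0738).

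Granule genes, the killing machinery, also differed from those of T cells. The promoters of 4 NK effector or identity genes are shown, since Runx3 and the T-box factors, which each bind a short DNA motif, are regulators of NK cells. All 4 come from the genes that held a match, and most of the genes looked up held none (below). Each line gives the 250 bases before the RefSeq transcription start in GRCm38.p6, 5′ to 3′ on the gene's strand, for Ncr1 (chr7:4337474-4337723, plus), Gzma (chr13:113100982-113101231, minus), Gzmb (chr14:56262335-56262584, minus) and Xcl1 (chr1:164935523-164935772, minus). Capitals mark a match on either strand to a RUNX motif (TGTGGTT) or a T-box motif (GGTGTGA).

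Ncr1: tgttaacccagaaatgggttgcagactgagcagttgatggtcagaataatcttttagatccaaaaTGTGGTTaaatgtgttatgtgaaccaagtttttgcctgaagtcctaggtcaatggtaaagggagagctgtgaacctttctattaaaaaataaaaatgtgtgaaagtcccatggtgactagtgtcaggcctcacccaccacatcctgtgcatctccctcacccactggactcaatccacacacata

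Gzma: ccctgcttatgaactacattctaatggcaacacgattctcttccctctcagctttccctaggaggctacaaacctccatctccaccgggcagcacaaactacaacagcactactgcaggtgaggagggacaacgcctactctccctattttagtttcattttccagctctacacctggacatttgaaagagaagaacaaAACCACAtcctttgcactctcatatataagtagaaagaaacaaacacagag

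Gzmb: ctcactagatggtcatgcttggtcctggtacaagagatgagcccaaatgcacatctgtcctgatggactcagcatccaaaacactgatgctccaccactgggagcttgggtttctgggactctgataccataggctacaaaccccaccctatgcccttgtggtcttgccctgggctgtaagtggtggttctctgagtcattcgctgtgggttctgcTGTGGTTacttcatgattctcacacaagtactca

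Xcl1: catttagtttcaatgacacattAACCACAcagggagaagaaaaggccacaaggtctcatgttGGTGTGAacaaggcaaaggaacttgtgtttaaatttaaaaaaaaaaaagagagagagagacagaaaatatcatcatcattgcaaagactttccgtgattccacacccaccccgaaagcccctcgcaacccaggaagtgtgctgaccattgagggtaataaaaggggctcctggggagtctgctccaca

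The RUNX letters lie with their first base 185 bases before the start in Ncr1, 51 in Gzma (minus strand), 34 in Gzmb and 228 in Xcl1 (minus strand), and the T-box letters 188 bases before the start in Xcl1. Of 17 NK genes looked up, 15 had a promoter in the RefSeq table, some more than 1. In 6 of them (Ncr1, Klre1, Gzma, Gzmb, Gzmc and Xcl1) at least 1 listed promoter held the RUNX letters. Those letters occur in 4.40% of 32851 promoters of that length. The count is per gene of a chosen set and the share is per promoter, so they do not compare directly. The T-box letters (3.33% of promoters) were found only in Xcl1, and an ETS motif (ACAGGAAG, 2.90%) in none, and no 2 matches overlapped. A match describes the letters and is not evidence of binding.

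Gzma, granzyme A, was at 4989, 4828, 6089 and 5252 CPM in NK cells, at 399, 416, 1117 and 716 CPM in CD8 T cells and at 24.1, 5.12, 120 and 207 CPM in gamma-delta T cells. No T cell value reached the NK range, with log2 differences of 3.11 ± 0.18 (adjusted p = 3.62e-06) and 6.55 ± 0.62 (adjusted p = 0.000105). As with Klra8, Gzma was a chosen marker. It belongs to 44 genes with no nonzero count below 4 in the deposited matrix, so its low counts may read as 0 and the share of cells with it may be too low. Gzmb, granzyme B, differed less. It stood at 567, 820, 758 and 990 CPM against 267, 224, 278 and 250 CPM in CD8 T cells, with no overlap (log2 difference 1.58 ± 0.17, adjusted p = 0.000283). In gamma-delta T cells it was at 297, 90.1, 12.8 and 150 CPM (log2 difference 2.79 ± 0.51, adjusted p = 0.00786), and that call was lost without untreated 2 (adjusted p = 0.0911) and without inhibitor 2 (0.0525).

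In all, 6 of 19 tested granule genes were higher than in CD8 T cells (median 0.23) and 6 of 17 higher than in gamma-delta T cells (median 0.86). In each they were Gzma, Gzmb, Gzmc, Serpinb9, Serpinb6b and Nkg7, and the NK counts are shared between the comparisons. Over all genes tested, 1.11% and 1.74% were higher, with medians of -0.08 and -0.03. Serpinb9 and Serpinb6b are protease inhibitors that shield the killer from its own granzymes. Serpinb9 stood at 310, 278, 253 and 200 CPM against 33.9, 43.8, 36.3 and 30.1 CPM in CD8 T cells (log2 difference 2.83 ± 0.22, adjusted p = 1.97e-05). Nkg7, a granule membrane protein, was at 2444, 2563, 2739 and 2035 CPM against 1182, 858, 1445 and 1267 CPM, a smaller difference of 1.04 ± 0.13 (adjusted p = 0.00104). Gzmk alone was lower, at 24.1, 2.42, 0 and 27.6 CPM against 155, 101, 179 and 130 CPM in CD8 T cells (log2 difference -3.28 ± 0.53, adjusted p = 0.00447). Gzmc depended on single cells. It was at 87.7, 41.1, 15.8 and 1535 CPM, 79.3% of its counts in inhibitor 2 came from 1 cell, and its call against gamma-delta T cells was lost without that mouse (adjusted p = 0.178). The lysosomal and release genes Srgn, Lamp1, Rab27a, Unc13d and Stxbp2 were not called in either comparison.

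**Figure D2:**
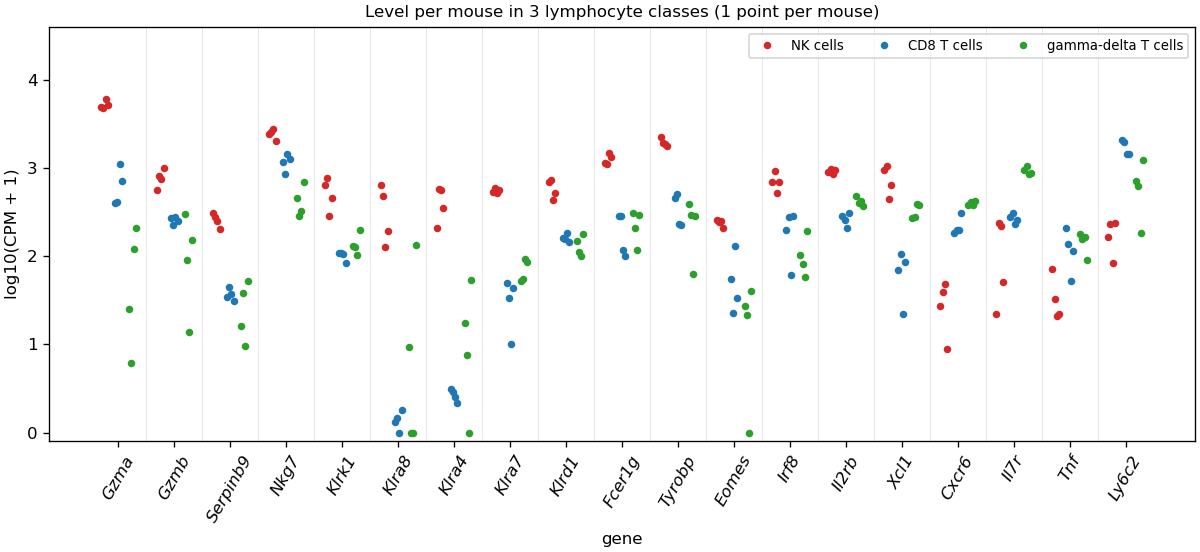
Level of 19 genes in NK, CD8 T and gamma-delta T cells, as log10(CPM + 1) on the axis, with 1 point per mouse and class. Klra8 and Klra4 are at or near 0 in CD8 T cells and at 126 to 645 CPM in NK cells, and Ly6c2 runs the other way.

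Few transcription factors were called. Of 16 factors tested against CD8 T cells, Eomes and Irf8 were higher and none lower (median log2 difference 0.50). Over all genes 1.11% were higher and 2.27% lower, with a median of -0.08. Eomes stood at 253, 242, 253 and 208 CPM in NK cells, against 54.2, 21.7, 129 and 32.5 CPM in CD8 T cells and 26.3, 20.5, 0 and 39.0 CPM in gamma-delta T cells. The NK values barely varied and lay above every T cell value (log2 difference 2.30 ± 0.35 and 3.49 ± 0.51, adjusted p = 0.00335 and 0.00167). Irf8, a factor better known from dendritic cells and monocytes, was at 691, 915, 521 and 689 CPM against 195, 275, 60.6 and 282 CPM in CD8 T cells (1.92 ± 0.25, adjusted p = 0.000981). Tbx21 (T-bet) was at 124, 60.5, 90.8 and 114 CPM and missed the threshold in both comparisons (1.37 ± 0.36, adjusted p = 0.0612, and 1.08 ± 0.39, adjusted p = 0.168). Against gamma-delta T cells 2 of 17 factors were higher and 2 lower, among the latter Rora, a factor of innate and type 17 lymphocytes, at 2.19, 26.6, 82.9 and 22.4 CPM against 156, 162, 265 and 146 CPM (-2.97 ± 0.51, adjusted p = 0.00522). Eomes was detected in 44.3% of NK cells, in 13.7% of CD8 T cells and in 1.13% of Ly6g+ cells, or in 31.3%, 7.55% and 0.658% after each cell was thinned to 3000 counts.

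Of the cytokine receptors and signalling genes, Il2rb, Il12rb2 and Il18rap were higher in both comparisons, out of 24 tested in each. Over all genes, 1.11% were higher than in CD8 T cells and 1.74% higher than in gamma-delta T cells. Il2rb, the chain shared by the receptors for interleukin-2 and interleukin-15, was at 911, 963, 864 and 959 CPM. It stood at 282, 255, 210 and 310 CPM in CD8 T cells and at 481, 398, 426 and 371 CPM in gamma-delta T cells, so the classes did not overlap (log2 difference 1.80 ± 0.14 and 1.10 ± 0.14, adjusted p = 1.97e-05 and 0.00064). Il12rb2, at 38.4, 62.9, 55.3 and 22.4 CPM, was lost against CD8 T cells without untreated 1 (adjusted p = 0.209), untreated 2 (0.141) or inhibitor 1 (0.0956), and against gamma-delta T cells whichever mouse was left out (0.108 to 0.182). The common chain Il2rg did not pass the test in either. Il18rap, at 254, 184, 221 and 176 CPM, passed against CD8 T cells (1.17 ± 0.25, adjusted p = 0.0259) but not without untreated 1 (adjusted p = 0.21), untreated 2 (0.0635) or inhibitor 1 (0.0911). Against gamma-delta T cells (1.01 ± 0.23, adjusted p = 0.029) it missed without the same mice (0.157, 0.14 and 0.078). Il7r, the receptor for interleukin-7, varied widely between mice at 20.8, 235, 217 and 49.98 CPM, and was lower than the 951, 1059, 849 and 867 CPM of gamma-delta T cells (-3.36 ± 0.48, adjusted p = 0.00151).

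Among 12 secreted factors tested against CD8 T cells, 1 was higher and 1, Tnf, was lower, against 1.11% and 2.27% of all genes. The higher gene was the chemokine Xcl1, which attracts cross-presenting dendritic cells. It was at 956, 1048, 446 and 638 CPM in NK cells and at 69.3, 106, 21.2 and 84.0 CPM in CD8 T cells (log2 difference 3.53 ± 0.23, adjusted p = 6.92e-06). Gamma-delta T cells had 270, 279, 389 and 379 CPM, and the smaller difference of 1.15 ± 0.26 (adjusted p = 0.0249) was lost without untreated 1 (adjusted p = 0.156), untreated 2 (0.191) or inhibitor 2 (0.0637). The inflammatory chemokines Ccl3, Ccl4 and Ccl5 were higher than in gamma-delta T cells, with Ccl5 at 4855, 6509, 6910 and 5262 CPM against 1391, 1202, 987 and 2170 CPM (2.03 ± 0.20, adjusted p = 0.000125). Ifng was at 215, 544, 402 and 203 CPM and was detected in 51.4% of NK cells, 34.5% of CD8 T cells and 22.7% of gamma-delta T cells, with 4.09% in Ly6g+ cells. Its level passed the test in neither comparison (0.65 ± 0.32, adjusted p = 0.389, and 0.93 ± 0.27, adjusted p = 0.0837). Tnf was lower than in CD8 T cells, at 70.2, 31.5, 19.7 and 21.0 CPM against 209, 137, 50.7 and 115 CPM (-1.92 ± 0.31, adjusted p = 0.00426). Tnf was not called without untreated 1 (adjusted p = 0.0633) or without cells with markers of other types (0.334).

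Homing genes differed from those of the T cells. Cxcr6, a receptor of tissue-resident lymphocytes, was lower in NK cells, at 26.3, 38.7, 47.4 and 7.89 CPM against 183, 197, 199 and 307.4 CPM in CD8 T cells and 381, 416, 379 and 424 CPM in gamma-delta T cells (-3.05 ± 0.43 and -3.97 ± 0.37, adjusted p = 0.00194 and 9.19e-05). No NK value reached the T cell values. Cxcr6 was found in 10.9% of NK cells, 40.6% of CD8 T cells and 54.4% of gamma-delta T cells, against 2.34% of Ly6g+ cells. S1pr1, the receptor for exit from tissue, was called lower in both comparisons, but against CD8 T cells not with any mouse left out (adjusted p from 0.0818 to 0.291), and against gamma-delta T cells not without untreated 2 (0.08) or inhibitor 2 (0.0675). Ccr2 was called only against CD8 T cells (1.11 ± 0.24, adjusted p = 0.0283), and not without untreated 1 (adjusted p = 0.221), untreated 2 (0.0697) or inhibitor 2 (0.146). Cx3cr1, also a microglia gene, was lower than in CD8 T cells (-2.66 ± 0.32) but at -0.19 (adjusted p = 0.951) once cells with markers of other types were left out.

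Several genes induced by interferon were lower in NK cells, and none was higher. Of 25 tested against CD8 T cells, 9 were lower and 0 higher (median log2 difference -1.17), and of 21 against gamma-delta T cells, 10 were lower and 0 higher (median -1.24). Over all genes tested, 2.27% and 2.52% were lower, with medians of -0.08 and -0.03. Ly6a (Sca-1) was at 70.2, 77.4, 19.7 and 110 CPM in NK cells and at 823, 655, 592 and 963 CPM in CD8 T cells (-3.50 ± 0.24, adjusted p = 1.06e-05). In gamma-delta T cells it stood at 1702, 1634, 1100 and 2166 CPM (-4.65 ± 0.20, adjusted p = 4.06e-07), and no NK value came near. Ly6c2, outside the list, was at 164, 230, 82.9 and 239 CPM against 2067, 1965, 1437 and 1453 CPM in CD8 T cells (-3.33 ± 0.21, adjusted p = 6.67e-06). Igtp, a GTPase of the interferon-gamma response, was at 53.7, 41.1, 19.7 and 27.6 CPM against 158, 107, 109 and 128 CPM (-1.86 ± 0.30, adjusted p = 0.00494, but 0.0549 without untreated 1). Without untreated 1, 2 of 25 genes of the list were lower than in CD8 T cells, and without inhibitor 2, 3 of 26, with medians of -1.11 and -1.26. In that list 4 passed against gamma-delta T cells without untreated 1, without untreated 2 or without inhibitor 2.

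Markers of other cells bear on the genes lower in NK cells. Of 14 microglia and macrophage markers, 13 were lower than in CD8 T cells (median -4.16) and none was higher. Where cells with such markers were left out of both classes, 61 genes were lower than in CD8 T cells in place of 206, and 82 were higher in place of 101. Without untreated 1 the counts were 63 lower and 59 higher, and without inhibitor 2 they were 125 and 72. The part of these other cells in single gene differences was not tested. The interferon-stimulated list had a median of -1.11 there, with 7 of 24 tested genes called.

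Cell cycle genes were called against gamma-delta T cells, where 10 of 26 were higher and 0 lower (median log2 difference 1.54), among them Top2a, at 323, 75.0, 158 and 429 CPM against 9.78, 25.6, 32.1 and 148 CPM (2.44 ± 0.51, adjusted p = 0.0164). Leaving out 1 mouse at a time left between 4 (without untreated 1) and 10 called, with 6 each without untreated 2 and without inhibitor 2, and leaving out cells with markers of other types left 0 of 10 tested. Against CD8 T cells 0 of 29 were called (median 0.65). At an adjusted p under 0.05 and any fold 1 passed there, against 7 without untreated 2 (median 1.11), 5 by DESeq2 and 6 without the low-count filter, and the median was -0.24 without cells with markers of other types. Mki67 was detected in 22.4% of NK cells, 15.5% of CD8 T cells, 9.82% of gamma-delta T cells and 11.6% of Ly6g+ cells. At a depth of 3000 counts per cell the shares were 15.3%, 9.94%, 4.28% and 7.39%.

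**Figure D3:**
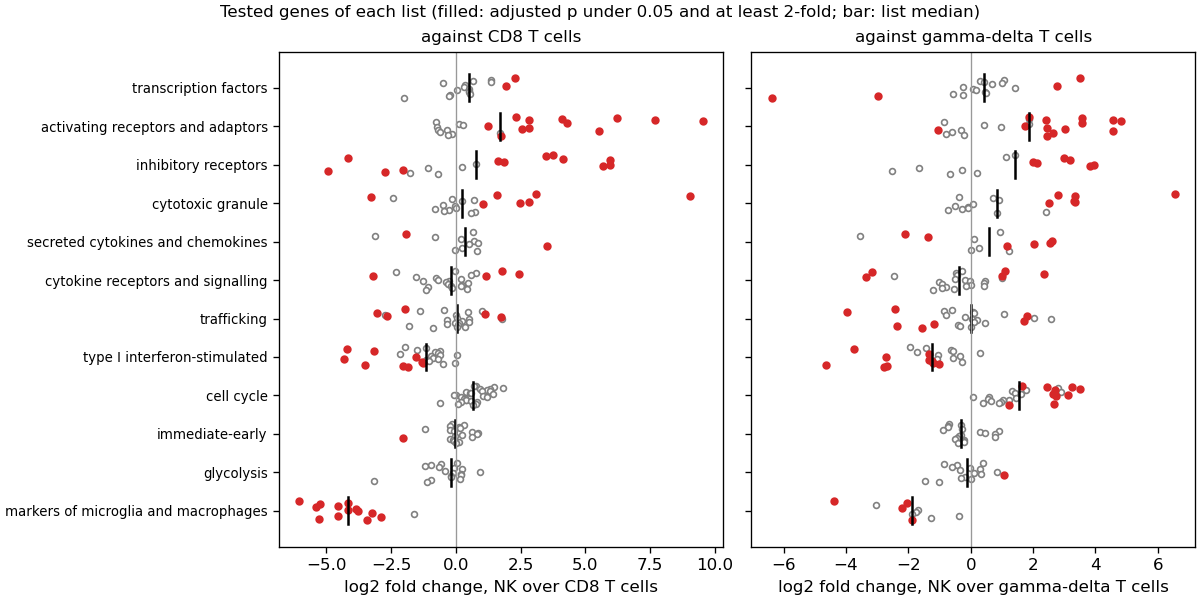
Log2 difference of each tested gene between NK cells and CD8 T cells or gamma-delta T cells, grouped by 12 gene lists. Filled points were called (adjusted p under 0.05 and at least 2-fold) and bars are medians. Activating receptors lie mostly above 0 (medians 1.71 and 1.88) and interferon-stimulated genes below (-1.17 and -1.24).

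Genes outside the receptor and granule lists were also among those of largest fold. Sulf2, an enzyme that trims heparan sulfate, was at 133, 109, 110 and 94.7 CPM in NK cells and at no more than 2.77 CPM in any CD8 T cell sample (log2 difference 6.16 ± 0.45, adjusted p = 1.64e-05). Adamts14, a collagen-processing protease, was at 99.8, 99.2, 107 and 154 CPM, with 10.6 CPM the highest CD8 T cell value (5.61 ± 0.64, adjusted p = 0.000401). Cma1, a chymase also known from mast cells, was at 41.7, 94.4, 233 and 57.9 CPM and was found in 10.9% of the NK cells (6.49 ± 0.57, adjusted p = 5.57e-05), with 1 cell holding 83.1% of its counts in inhibitor 1. Car2, carbonic anhydrase 2, was at 414, 385, 343 and 538 CPM against 11.4, 12.2, 40.9 and 26.2 CPM in CD8 T cells (4.37 ± 0.33, adjusted p = 1.97e-05), and in 60.7% of NK cells. Its smaller difference to gamma-delta T cells (2.96 ± 0.64) was lost without untreated 1 (adjusted p = 0.12), untreated 2 (0.142) or inhibitor 2 (0.134). The other 6 erythroid markers were at or listed at 0 in NK cells. Itgax (CD11c), also a dendritic cell gene, was at 300, 186, 75.0 and 179 CPM against 21.8, 12.4, 8.56 and 15.6 CPM in gamma-delta T cells (3.60 ± 0.33, adjusted p = 8.42e-05). Sit1, an adaptor of T cell receptor signalling, had 0 counts in NK cells of all 4 mice, which is at least 50.7-fold lower than in CD8 T cells, taking 3 counts over all NK cells as the floor. In the same way Trgc2 and Il17a were at least 250-fold and 193-fold lower than in gamma-delta T cells.

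Within the NK cells, receptors were patchy from cell to cell. Of the 9 Ly49 genes counted, 61 cells (33.3%) showed none, 35 (19.1%) showed 1 and 87 (47.5%) showed at least 2, up to 6 in a cell. Cells with none had a median of 6558 counts, below the class median of 8092, so undetected is not absent. Klra8 was found in 54 cells and Klra4 in 56, and 34 cells held both. Klrc1 was found in 114 cells and any Ly49 gene in 122, with 66 cells holding both and 13 neither. Gzma was found in 115 cells and Gzmb in 79, and 70 cells held both. Eomes was found in 81 and Tbx21 in 55 cells, with 28 holding both.

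NK cells mature from Cd27+ cells to cells with Itgam (CD11b) and Klrg1, and liver and tissue counterparts called type 1 innate lymphoid cells carry Itga1 and Cd200r1. By transcript, 95 cells had Itgam or Klrg1 and are called late for short, and 30 had Cd27 with neither and are called early. A count of Itgam, found in 44.3% of NK cells, was also found in 23.8% of CD8 T cells, 17.6% of gamma-delta T cells and 89.1% of Ly6g+ cells, so it does not by itself show a stage. Klrg1 was found in 15.3% of NK cells and 0.377% of Ly6g+ cells, and Cd27 in 36.1% and 1.02%. Late cells were 59.1%, 45.5%, 33.3% and 57.1% of the NK cells of each mouse, and early cells 19.7%, 13.6%, 20.8% and 12.2%. Inhibitor 1 had the lowest late share, and inhibitor 2 was within the untreated range. Late cells had Gzma at 6762 CPM, Prf1 at 1075 CPM and S1pr5, an exit receptor of mature NK cells, at 51.6 CPM, and early cells had 2807, 518 and 0 CPM. By mouse, Gzma in early cells was at 1757, 5601, 6342 and 431 CPM against 6257, 6378, 9548 and 7108 CPM in late cells, lower in each mouse but with a wide spread. A mouse had as few as 5 early cells, so the difference was not tested. The largest early cell of each mouse held 27.0%, 39.0%, 62.3% and 51.5% of its early-cell counts, so these levels lean on single cells.

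Itga1 or Cd200r1 was found in 36 cells, which were 25.8%, 15.9%, 12.5% and 18.4% of the NK cells. Itga1 was detected in 16.9% of NK cells, 11.1% of CD8 T cells and 1.34% of Ly6g+ cells. Cd200r1, in 4.37% of NK cells, was no more frequent than in CD8 T cells (4.50%) or Ly6g+ cells (6.92%), which is at background, so these cells are named by the genes and not as a type. The 36 cells had Eomes at 250 CPM, near the 231 CPM of the other 147 cells, and Gzma at 2869 against 6037 CPM. In inhibitor 1 the order for Gzma was reversed, at 6895 against 5711 CPM, on 3 cells. Of the 20 cells with Cxcr6, 10 were in this group. No test was made, since the groups held down to 3 cells in a mouse.

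Cells with Mki67 or Top2a, called cycling here, numbered 55 and made up 36.4%, 20.5%, 16.7% and 36.7%. Their median of 15359 counts was well above the class median, and at 3000 counts per cell the shares were 26.2%, 16.7%, 16.7% and 24.4%. Cxcr6 was detected in 10.6%, 13.6%, 16.7% and 6.12%, and Ifng in 39.4%, 56.8%, 50% and 63.3% of the NK cells of each mouse. At full depth the untreated and inhibitor-treated mice overlapped for all 6 subsets, with exact permutation p from 0.667 to 1 and an adjusted p of 1 in each. At 3000 counts per cell both inhibitor-treated mice lay below both untreated mice for early cells (15.4% and 14.3% against 12.5% and 13.3%) and for cells with Itga1 or Cd200r1 (20% and 11.9% against 4.17% and 11.1%), each with the smallest exact p of 0.333.

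**Figure D4:**
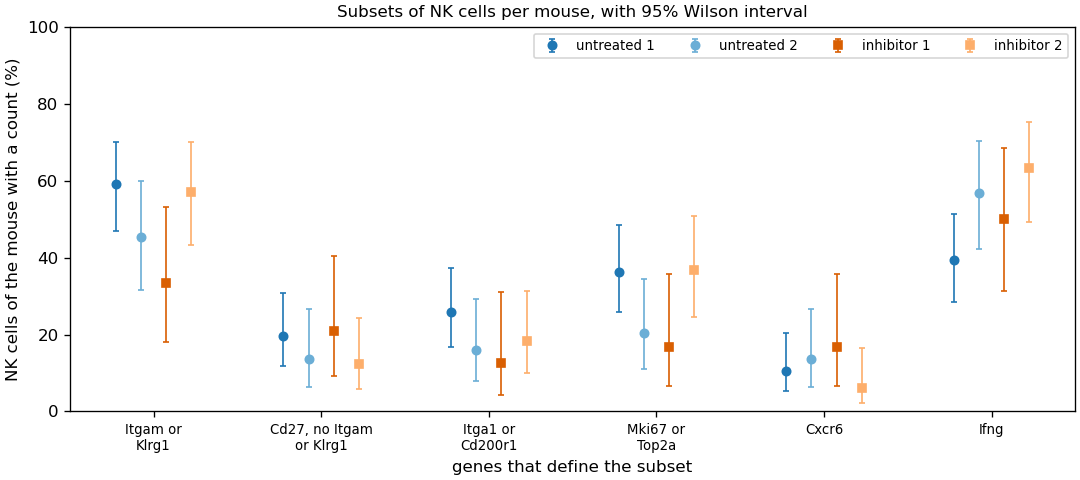
Share of NK cells in each of 6 subsets, 1 point per mouse with its 95% Wilson interval. Intervals are wide, since inhibitor 1 had 24 NK cells, and at this full depth the groups separate in no subset.

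To ask whether the inhibitor altered NK transcripts, summed counts of the 2 inhibitor-treated mice were compared with those of the 2 untreated mice. No gene of 7139 was called at an adjusted p under 0.05 by edgeR in either direction (0%), and 222 (3.11%) had an unadjusted p under 0.05. Both inhibitor-treated mice lay above both untreated mice for 15.2% of the genes and below both for 16.8%. The levels of the main effector and identity genes were close. Gzma differed by a log2 value of 0.19 ± 0.10, Gzmb by 0.32 ± 0.24, Nkg7 by -0.09 ± 0.16, Eomes by -0.14 ± 0.31, Il2rb by -0.06 ± 0.18 and Klra7 by -0.08 ± 0.23. With changes planted in simulated counts of the same size, 8% of 2-fold and 56% of 4-fold changes were called. In such counts, smaller changes would mostly be missed. The simulation gave every gene the same fixed spread between mice, not estimated from these data, so the real shares may differ.

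The smallest p belonged to Klra8. Untreated NK cells had 645 and 482 CPM, and inhibitor-treated ones 126 and 195 CPM, below in 2 of 2 mice. The log2 difference was -1.81 ± 0.32, with an unadjusted p of 0.00028 and an adjusted p of 1.00 by edgeR. DESeq2 gave an adjusted p of 0.00818 and edgeR without a low-count filter 0.000218, and the log2 difference without inhibitor 2 was -2.20. No gene was called lower with DESeq2 size factors, bias-adjusted deviances, the replicate block, the stricter gate or the 10% mitochondrial limit. The same held after thinning, without the 10% of cells with most counts and without cells with markers of other types. The share of cells with Klra8 did not separate the groups, at 33.3%, 27.3%, 16.7% and 32.7%. Klra4, which is often found in the same cells, was at 207 and 574 against 560 and 355 CPM (0.21 ± 0.44). Klrk1, at 639 and 779 against 284 and 454 CPM (-0.94 ± 0.28, unadjusted p = 0.00782), and Xcl1, at 956 and 1048 against 446 and 638 CPM (-0.90 ± 0.23, unadjusted p = 0.00332), also separated the groups without passing the adjustment. Of 22 activating receptors and adaptors, 9 lay below and 2 above in both inhibitor-treated mice, against 16.8% below and 15.2% above over all genes. Their median was -0.30 against -0.03 over all genes. With all 4 mice and the low-count filter, edgeR called none of the 22.

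Other genes with the smallest p were mixed in kind. Tbc1d2b, a regulator of membrane traffic, had 111 and 106 CPM without the inhibitor and 15.8 and 11.8 CPM with it (-3.03 ± 0.64). Tfeb, a master regulator of lysosomes, was at 14.3 and 12.1 against 142 and 72.3 CPM (2.94 ± 0.68). Cdkn1a, the cell cycle inhibitor p21, was at 35.1 and 70.2 against 174 and 197 CPM (1.84 ± 0.48). Dbf4, which licenses DNA replication, was at 34.0 and 26.6 against 170 and 118 CPM (2.19 ± 0.53). H2ax was at 145 and 119 against 509 and 242 CPM, but 1 cell held 84.5% of its counts in inhibitor 1, and the single cell with Cenpf in that mouse held all of them. None passed the adjustment (adjusted p = 1.00 for each by edgeR).

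No list held a called gene between treatments. Of 27 cell cycle genes, 23 were positive in the inhibitor-treated mice, with a median log2 difference of 0.74, and 14 lay above in both mice. Over all genes tested, 3414 of 7139 were positive, with a median of -0.03, and 15.2% lay above in both mice. In inhibitor 1, a single cell held 69.1% of the counts of the 4 cycling cells. The cell cycle median was 1.86 without untreated 1, 0.30 without untreated 2 and 0.15 when cells were thinned to 3000 counts. Of 19 interferon-stimulated genes, 3 were positive (median -0.96). That median was 0.05 without untreated 2 and -0.02 without cells with markers of other types. Heat shock genes had 0 of 10 positive, with a median of -0.41, and the median stayed below 0 in every alternative run. Granule genes had 10 of 17 positive and a median of 0.11.

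**Figure D5:**
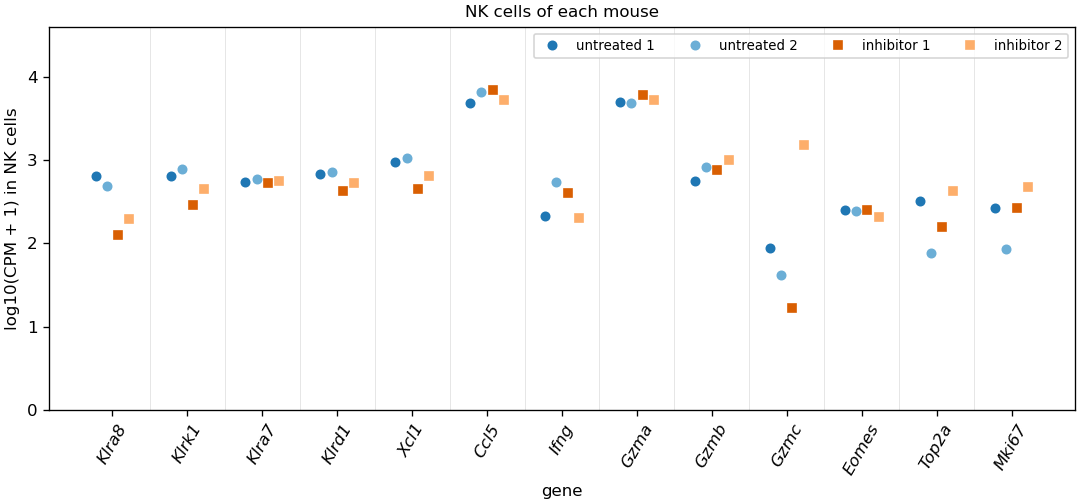
Level of 13 genes in the NK cells of each mouse, as log10(CPM + 1). Klra8 and Xcl1 are lower in both inhibitor-treated mice, Gzma and Klra7 are level, and Gzmc is high in inhibitor 2, where 1 cell holds most of its counts.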

How the data were processed

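Per the labels and the file itself, the authors deposited raw whole-number counts for 28482 genes in 25461 columns, 1 column a cell, with no normalization. The submitters' processing notes name GRCm38. Aligner, counting tool, strandedness and what a single count stands for (read or molecule) are not given in these sources. Nonzero counts of the first 44 genes in the matrix start at 4 or above, so for these a 0 is written as listed at 0. The members and gene lists were chosen with earlier results of these data known.

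Mice were taken from the hashtag in each column name. 3943 columns with more than 1 hashtag belonged to no mouse and were not used. Of 21518 single-hashtag cells, 1014 had over 20% mitochondrial counts and were removed. No doublet caller was run. Instead, the 10% of NK cells with the most counts, and cells with markers of other types, were left out as alternatives. CD8 T cells had at least 2 Cd3 counts, at least 1 of Cd8a or Cd8b1 and no Cd4, and gamma-delta T cells at least 2 Cd3 counts, at least 1 Trdc and no Cd4, Cd8a or Cd8b1. Both lacked Cd79a, Ly6g and Ncr1.

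Counts were summed per mouse and class and tested with edgeR 4.0.16 (quasi-likelihood, TMM, low-count filter, Benjamini-Hochberg adjustment over all genes tested, mouse as a block between classes) in R 4.3.3. Gate genes and mitochondrial genes were not tested. CPM are of the class total without TMM scaling. Shares were compared by exact permutation over mice, two-sided. Alternatives were DESeq2 1.42.0 and its size factors, no filter, bias-adjusted deviances, each mouse left out, a replicate block, a stricter gate (at least 2 counts of Ncr1 and over Klrb1c, Klre1 and Prf1, and no Cd3 count), a 10% mitochondrial limit and thinning to 3000 counts per cell. On simulated counts for 7139 genes, 0.043% of unchanged genes were called between treatments. Every simulated gene had the same fixed spread between mice, which was not estimated from these data. Named genes are those of the gate, the markers and the lists, the 12 with the smallest p between treatments, and the 12 of largest fold in each direction between classes with at least 50 CPM. Median counts per NK cell ran from 5998.5 to 9398 between mice. Scripts used Python 3.11.15. Some genes and 1 subset are not reported here.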

Additional observations from a re-analysis of the deposited data

How the results depend on the processing

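With 2 mice per group and 24 to 66 NK cells per mouse, only large differences could be called. The lower NK share of all kept cells in inhibitor-treated mice kept its sign in every setting run. The difference was -0.718 to -0.195 percentage points when a mouse was left out. Relative to NK and T cells together it was -0.144 points, and no mouse was left out there. Both inhibitor-treated mice (1.61% and 2.16%) then lay above untreated 2 (1.44%), so that sign depends on untreated 1. Of the 6 subset shares, that of cells with Itga1 or Cd200r1 kept its sign (-10.3 to -0.475 with a mouse left out, -8.31 thinned, -1.36 with the stricter gate), and the other 5 turned in some setting. Leaving out 1 mouse gave differences from -18.9 to 4.87 points for late cells, -4.42 to 4.17 for early cells, -11.7 to 8.33 for cycling cells, -6.00 to 4.55 for Cxcr6, and -0.186 to 17.2 for Ifng, which was -0.811 with the stricter gate. Signs turned for late cells without inhibitor 1 (4.87), early cells without untreated 1 (2.90) or inhibitor 2 (4.17), cycling cells without untreated 1 (6.25) or inhibitor 1 (8.33), Cxcr6 without untreated 2 (0.788) or inhibitor 2 (4.55) and Ifng without untreated 1 (-0.186).

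Between treatments, 6 genes were higher and 2 lower without the filter, and 1 was lower by DESeq2. Leaving out 1 mouse gave 0 to 37 higher and 0 to 43 lower genes: 11 and 1 without untreated 1, 2 and 0 without inhibitor 1, and 37 and 43 without inhibitor 2, where the lone mouse is assumed to vary like the others. The fit with the replicate number as a block called 0 in either direction, and same-numbered mice did not deviate together (correlation -0.04 over 7139 genes), so the numbers were not used as pairs.

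Against CD8 T cells, genes higher and lower numbered 163 and 338 by DESeq2, 156 and 497 without the filter, 59 to 100 and 63 to 177 with a mouse left out (59 and 63 without untreated 1, 125 lower without inhibitor 2), with 108 lower when thinned and 61 lower without cells with markers of other types. Against gamma-delta T cells they numbered 194 higher by DESeq2, 193 and 338 without the filter, 65 to 114 and 109 to 165 with a mouse left out (72 and 109 without untreated 1, 65 and 114 without untreated 2), 82 and 97 when thinned, and 67 and 89 without cells with markers of other types. Thinning and leaving out cells also reduced the genes tested. Of single genes against CD8 T cells, Atf3 (0.92), Sparc (0.0878), Cst3 (0.0870) and H2-Aa (1.73) turned positive without cells with markers of other types, where the cause was not tested. Calls were lost with the sign kept in at least 1 setting by 36 of the single genes followed against CD8 T cells and by 40 against gamma-delta T cells. The late against early and Itga1 or Cd200r1 splits had too few cells for a test, so their alternatives were not run.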
